A study of Mus musculus with 19 samples.

Results

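The genes Cubn, Lrp2, Amn, Dab2, Lrpap1 and Fcgrt encode the cubilin and megalin uptake system and the Fc receptor of the yolk sac. They were taken by symbol, as 6 of the 23337 gene symbols in the deposited expression tables, and all 6 were found. The libraries compared mouse visceral yolk sac (VYS) endoderm (ysE) with cystic embryoid bodies (EBs), hollow aggregates grown from embryonic stem (ES) cells and used as a model of this layer. RNA-seq covered 11 libraries from 5 groups. E9.25 ysE, the mesodermal layer of the E9.25 VYS and E12.5 liver had 2 libraries each (A and B), E12.5 ysE had 1 and the cystic EBs had 4. The embryos were FVB, with litters pooled per sample and the VYS layers peeled apart, and the mesoderm was collected with its vessels and basement membrane. The cystic EBs (C57Bl/6x129) had differentiated for 10 or 15 days and came from 1 clone per letter, A9 (A) and JN (B). Bisulfite sequencing covered 6 further libraries of E12.5 ysE, E12.5 liver and day 15 cystic EBs, 1 from each direction of a cross between FVB and CAST mice (CxF and FxC), the EBs being a single ES clone per cross. H3K4me3 was profiled in 1 library of whole E12.5 VYS, which holds both layers.

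Cubilin, the Cubn product, is a large peripheral membrane protein that binds the complex of intrinsic factor and cobalamin (vitamin B12), albumin, transferrin and apolipoprotein A-I. It has no membrane-spanning segment of its own, and amnionless (Amn) anchors it in the apical membrane and carries the signal for its uptake. Megalin (Lrp2), a giant member of the LDL receptor family, shares ligands with cubilin, Dab2 links the receptors to clathrin, and the receptor-associated protein RAP (Lrpap1) is the chaperone that escorts megalin through the endoplasmic reticulum. Fcgrt encodes the heavy chain of the neonatal Fc receptor FcRn, which pairs with β2-microglobulin and carries maternal IgG. In rodents the outer endoderm of the VYS is an absorptive epithelium that takes up maternal protein with this machinery before the chorioallantoic placenta is fully at work, and later the same system works in the proximal tubule of the kidney.

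The starts of the 6 genes differ in their number of CpGs, the sites read in the methylation data described further on, so the 250 bases before 4 starts are shown first, 5′ to 3′ from RefSeq (GRCm38.p6, the assembly of mm10), with every CpG in capitals. All 6 genes matched the RefSeq table. Among the 6 genes Cubn and Fcgrt stand for the starts with fewer CpGs, Amn for an intermediate one and Lrp2 for those with more.
Cubn (chr2:13491877-13492126, minus strand): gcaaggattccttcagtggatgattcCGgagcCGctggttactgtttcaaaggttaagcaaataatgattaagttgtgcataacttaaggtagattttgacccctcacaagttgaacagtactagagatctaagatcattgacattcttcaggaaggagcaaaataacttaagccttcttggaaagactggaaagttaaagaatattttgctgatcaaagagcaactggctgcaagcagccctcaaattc
Fcgrt (chr7:45103823-45104072, minus strand): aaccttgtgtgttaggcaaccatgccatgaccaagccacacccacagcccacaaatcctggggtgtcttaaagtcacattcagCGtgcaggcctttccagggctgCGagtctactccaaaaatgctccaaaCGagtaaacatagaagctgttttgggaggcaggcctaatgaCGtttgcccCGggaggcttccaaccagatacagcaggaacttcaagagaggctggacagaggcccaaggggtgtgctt
Amn (chr12:111270846-111271095, plus strand): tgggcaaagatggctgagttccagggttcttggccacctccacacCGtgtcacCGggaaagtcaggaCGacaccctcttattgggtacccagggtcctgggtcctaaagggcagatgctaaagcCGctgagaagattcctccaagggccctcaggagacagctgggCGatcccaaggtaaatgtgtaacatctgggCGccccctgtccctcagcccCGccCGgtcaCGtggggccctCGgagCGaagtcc
Lrp2 (chr2:69586030-69586279, minus strand): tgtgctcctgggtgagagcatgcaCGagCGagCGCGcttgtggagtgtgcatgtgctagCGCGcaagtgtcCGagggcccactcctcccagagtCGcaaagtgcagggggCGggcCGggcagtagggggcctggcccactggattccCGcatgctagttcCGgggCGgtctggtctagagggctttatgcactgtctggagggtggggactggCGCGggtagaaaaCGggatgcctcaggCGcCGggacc

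These windows held 2 CpGs at Cubn, 5 at Fcgrt, 11 at Amn and 18 at Lrp2, against a median of 10 over 21263 starts of protein-coding genes (quartiles 3 and 19), so that Fcgrt, Amn and Lrp2 lie within the middle range and Cubn below it. Lrpap1 had 14. Dab2 has 2 starts in RefSeq, a first one with 2 CpGs and a second one further into the gene with 17. Cubn lies on chromosome 2 (13276338 to 13491876, minus strand), Lrp2 also on chromosome 2 (69424335 to 69586029, minus), Amn on chromosome 12 (111271096 to 111276426, plus), Dab2 on chromosome 15 (6299788 to 6440715, plus), Lrpap1 on chromosome 5 (35091490 to 35105699, minus) and Fcgrt on chromosome 7 (45092993 to 45103822, minus).

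Short motifs were searched on both strands of the same windows. The GC box GGGCGG was found 5 times at Lrpap1, 2 times at Lrp2 and once at Amn, and is held by 42.6% of all starts. GATAA occurred once at Lrpap1 and once at the first Dab2 start (20.5% of all starts), GTTAAT once at the second Dab2 start (5.86%) and CACGTG once at Amn (6.63%). None of the 7 windows held TATAAA (11.6%), and the Cubn and Fcgrt windows held none of the 5 motifs.

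RNA-seq depth ranged from 40453779 counts in E12.5 ysE to 169981821 in E9.25 ysE B. The E9.25 libraries and the JN EBs were made with a dUTP protocol, the liver and A9 EBs with ScriptSeq and the E12.5 ysE without strand marking. The 6 genes took 0.688% and 0.814% of all counts in E9.25 ysE and 0.873% in E12.5 ysE. This share was 0.131% and 0.207% in VYS mesoderm, 0.0710% to 0.163% in cystic EBs, and 0.0178% and 0.0181% in liver. Levels are given below as the deposited RPKM, which scales reads by transcript length and library size. Markers of yolk sac endoderm (Afp, Ttr, Apoa2, Apoc2, Hnf4a, Apob and Rbp4) summed to 10563 to 11663 RPKM in E9.25 ysE, 40944 in E12.5 ysE, 1133 to 2019 in mesoderm, 1756 to 3129 in liver and 148 to 1432 in cystic EBs. Endothelial markers summed to 5.91 to 8.20 RPKM in E9.25 ysE and 155 to 169 in mesoderm, and erythroid markers to 857 to 1025 and 34356 to 44073 RPKM, which puts each layer on the side its label gives.

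Cubn stood at 336 and 429 RPKM in E9.25 ysE and at 183 in E12.5 ysE. The mesoderm had 61.1 and 102 RPKM, the cystic EBs 38.0 (d10 A9), 9.64 (d10 JN), 19.5 (d15 A9) and 10.6 (d15 JN), and the liver 0.435 and 0.550. The ranges of the 5 groups did not overlap, with ysE on top at both stages and liver at the bottom. Amn, which cubilin needs to reach the membrane, had 174 and 249 RPKM in E9.25 ysE, 115 in E12.5 ysE, 19.5 and 31.9 in mesoderm and 0.0780 and 0.0700 in liver. In cystic EBs it had 3.19 (d10 A9), 5.27 (d10 JN), 1.82 (d15 A9) and 12.4 RPKM (d15 JN). The order of groups was that of Cubn, again without overlap. For neither gene was the share of all transcripts with groups separated in this way computed.

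Lrp2, the megalin gene, had its highest level in E12.5 ysE at 253 RPKM, followed by 85.9 and 96.1 in E9.25 ysE. Mesoderm had 16.8 and 23.0 RPKM, cystic EBs had 29.7 (d10 A9), 20.7 (d10 JN), 15.9 (d15 A9) and 12.1 (d15 JN), and liver had 0.897 and 1.08. Mesoderm and cystic EBs overlapped. Dab2, the clathrin adaptor, ran from 73.5 and 88.6 RPKM in E9.25 ysE and 56.3 in E12.5 ysE to 18.7 and 27.0 in mesoderm, while liver had 4.03 and 3.65. In cystic EBs Dab2 had 33.8 (d10 A9), 9.42 (d10 JN), 27.9 (d15 A9) and 16.8 RPKM (d15 JN), so mesoderm lay within the range of the EBs. Dab2 is listed as 4 RefSeq transcripts that share most of their reads, and values are for the transcript that collected most reads on average (NM_023118).

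Lrpap1, the chaperone of megalin, was the only one of the 6 genes above 20 RPKM in all 11 libraries. It had 134 and 140 RPKM in E9.25 ysE, 280.2 in E12.5 ysE, 33.5 and 38.5 in mesoderm and 24.8 and 26.7 in liver. The cystic EBs, at 101 (d10 A9), 48.8 (d10 JN), 147 (d15 A9) and 75.8 RPKM (d15 JN), overlapped E9.25 ysE through the d15 A9 library. In that library the ribosomal precursor Rn45s took 7.35% of all counts, against 0.484% to 3.13% in the other 10, and its part in the result was not tested. Fcgrt had the widest span between the ysE stages, with 64.7 and 84.7 RPKM at E9.25 and 543 at E12.5. It had 31.0 and 29.0 RPKM in mesoderm and 10.2 and 11.9 in liver, and its lowest values were in cystic EBs, with 1.60 (d10 A9), 1.54 (d10 JN), 5.21 (d15 A9) and 4.59 (d15 JN). Liver stood below cystic EBs for the other 5 genes and above them for Fcgrt.

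**Figure D1:**
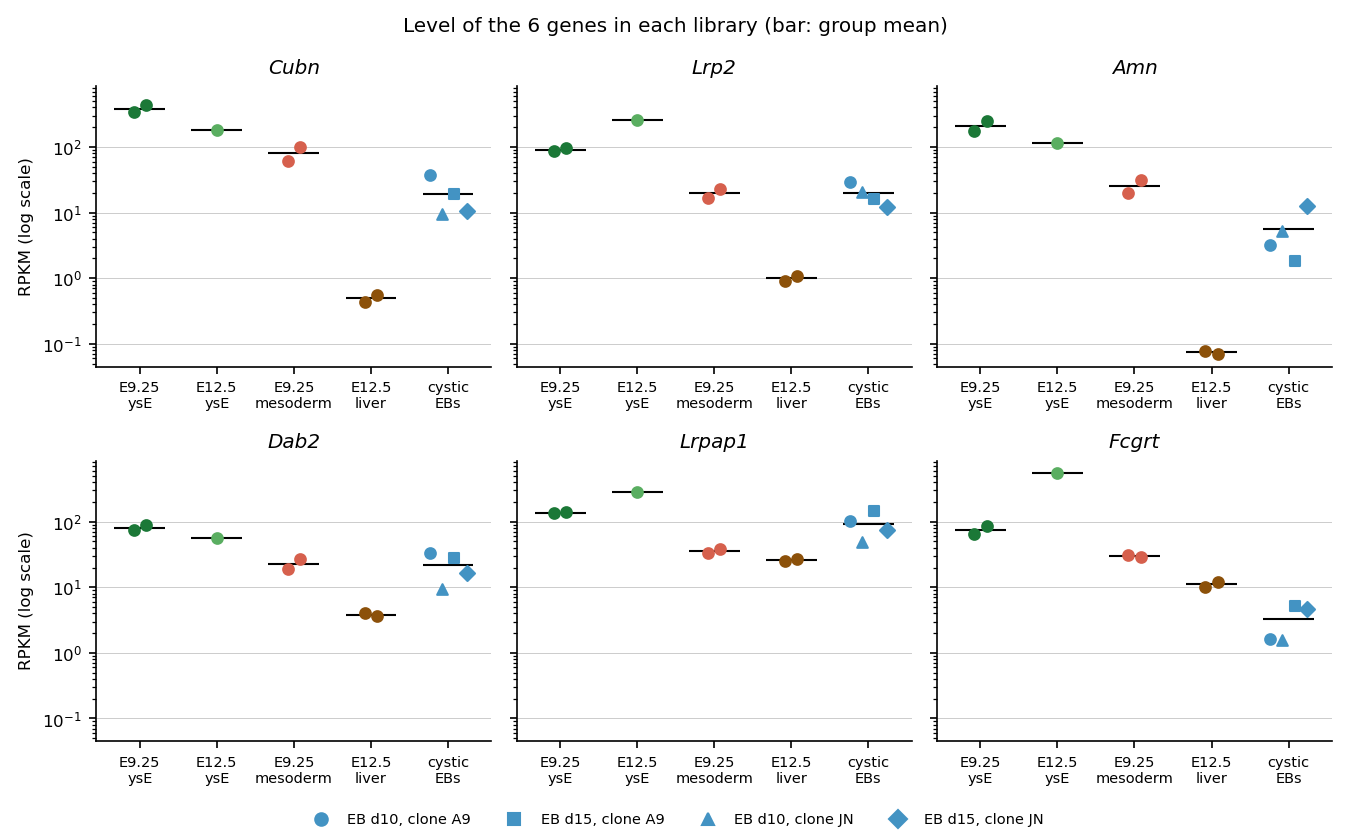
Level of each gene (RPKM, log axis) in the 11 RNA-seq libraries, 1 point per library and a bar at the group mean; the shape of the EB points gives day and clone. ysE is the highest group for all 6 genes, with the d15 A9 EB of Lrpap1 at 147 RPKM reaching the E9.25 ysE values of 134 and 140, and Fcgrt is the gene whose EB points (1.54 to 5.21) lie under liver (10.2 and 11.9).

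Within a library the genes changed rank. Cubn was the highest of the 6 in both E9.25 ysE libraries and in both mesoderm libraries, Fcgrt in E12.5 ysE, and Lrpap1 in all liver and EB libraries. The ratio of Cubn to Amn RPKM was 1.93 and 1.72 in E9.25 ysE, 1.59 in E12.5 ysE, and 3.13 and 3.19 in mesoderm. In the EBs it was 11.9 and 10.7 in the A9 libraries (ScriptSeq) against 1.83 and 0.859 in the JN libraries (dUTP). Clone and protocol cannot be told apart in this split. Liver, also made with ScriptSeq, had 5.58 and 7.86, with Amn at only 0.0780 and 0.0700 RPKM. The ratio of Lrpap1 to Lrp2 was 1.11 to 1.56 in ysE, 2.36 to 9.26 in EBs and 24.7 to 27.7 in liver, highest where Lrp2 itself was lowest. Cubn exceeded Lrp2 by 3.91 and 4.46 times in E9.25 ysE, and the E12.5 ysE library had a ratio of 0.723.

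The first comparison asked how far the genes mark the endodermal layer of the VYS. Transcripts were tested with edgeR across all 24858 that passed a filter on low counts, and a gene is called at an adjusted p under 0.05. Cubn, Lrp2, Amn, Dab2 and Lrpap1 were higher in E9.25 ysE than in VYS mesoderm, 5 of 6 genes against 13.7% of all transcripts called higher. Amn had the largest difference of the 6, 10.2-fold (log2 3.35, SE 0.75, adjusted p = 0.00815), followed by Cubn at 5.83-fold (log2 2.54, SE 0.64, adjusted p = 0.0148), Lrp2 at 5.69-fold (log2 2.51, SE 0.42, adjusted p = 0.00211), Lrpap1 at 4.75-fold (log2 2.25, SE 0.46, adjusted p = 0.00543) and Dab2 at 4.40-fold (log2 2.14, SE 0.53, adjusted p = 0.0135). Fcgrt was 3.11-fold higher (log2 1.64, SE 0.57) and missed the threshold at an adjusted p of 0.0549. Its ysE and mesoderm values did not overlap, and the share of all transcripts separated in this way was not computed. Fcgrt was called by DESeq2 (adjusted p = 0.0203, with 16.2% of all transcripts called higher) and with only the groups compared (adjusted p = 7.64e-05, with 30% called higher). The calls depended on single libraries, and calls over all transcripts also fell with a library left out, as given further on. Genes that lost the call without mesoderm A had log2 differences of 2.20 (Cubn), 3.02 (Amn), 1.87 (Dab2) and 2.12 (Lrpap1). Those that lost it without ysE B had 2.355 (Cubn) and 1.99 (Dab2). An FDR of 1%, which also lowered the calls over all transcripts, left Lrp2, Amn and Lrpap1.

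For the 6 genes the mesoderm libraries held 12.1% (Amn) to 40.1% (Fcgrt) of the E9.25 ysE mean RPKM, which is scaled otherwise than the edgeR folds. Cubn stood at 21.3%, Lrp2 at 21.8%, Lrpap1 at 26.2% and Dab2 at 28.2%. The 7 markers of yolk sac endoderm held 9.004% (Hnf4a) to 17.9% (Apob) of theirs, and 5 of 7 were called higher in ysE. Amn was within the range of the markers and the other 5 genes were above it. Lower in ysE were 5 of 5 endothelial, 6 of 6 erythroid, 3 of 6 macrophage, 3 of 6 mesothelial and fibroblast, 2 of 4 muscle and 1 of 4 parietal endoderm markers. Higher were 1 of 5 hepatoblast and 1 of 3 pluripotent markers. The part of these cells, and what ysE RNA in the mesoderm libraries contributed to the levels of the 6 genes, was not tested. In such bulk samples fewer cells of a type and less RNA per cell cannot be told apart.

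**Figure D2:**
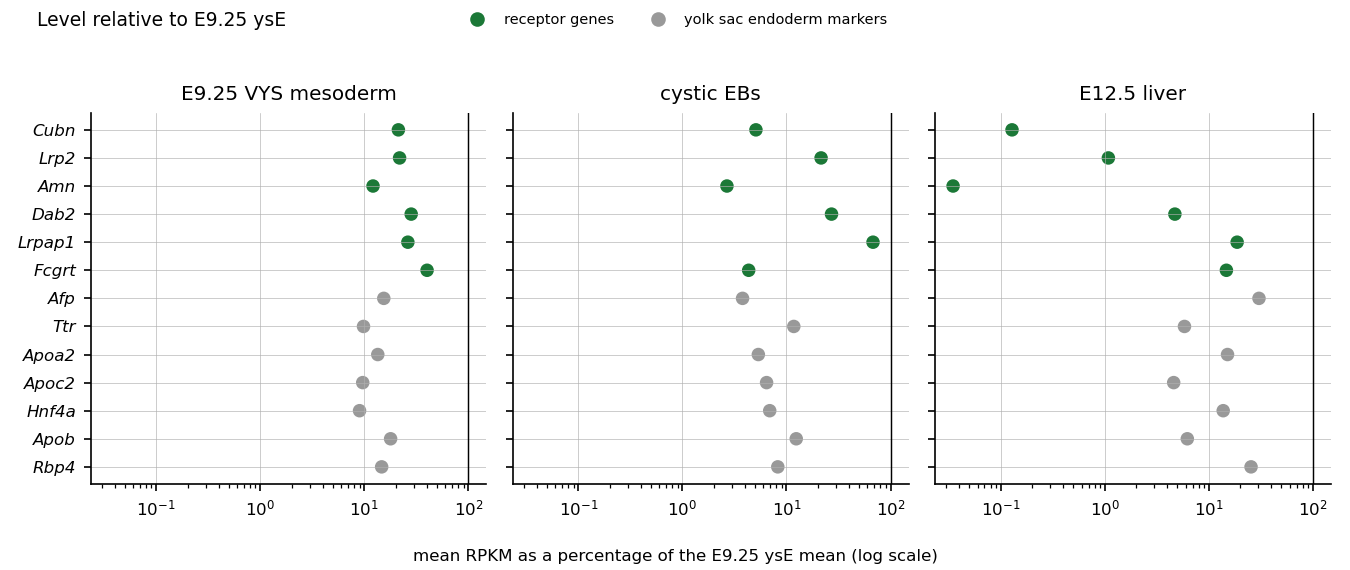
Mean RPKM of the 6 receptor genes (green) and of 7 yolk sac endoderm markers (grey) in mesoderm, cystic EBs and liver, as a percentage of the E9.25 ysE mean on a log axis that the panels share; the line marks 100%. In mesoderm the receptor genes lie between 12.1% and 40.1% and the markers between 9.004% and 17.9%, and in liver Amn (0.0349%), Cubn (0.129%) and Lrp2 (1.09%) fall below every marker (lowest 4.61%).

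Between E9.25 and E12.5 ysE, Fcgrt was the gene that differed most of the 6. It was 6.86-fold higher at E12.5 (log2 2.78, SE 0.66, adjusted p = 0.0330), the only one of the 6 called, against 3.90% of all transcripts called higher. Lrp2 had a log2 difference of 1.39 (SE 0.47, adjusted p = 0.102) and Lrpap1 of 0.95 (SE 0.52, adjusted p = 0.293), both toward E12.5. Cubn (log2 −1.15, SE 0.78, adjusted p = 0.399), Amn (−0.97, SE 0.87, adjusted p = 0.531) and Dab2 (−0.61, SE 0.64, adjusted p = 0.594) had values toward E9.25. B2m, the light chain of FcRn, was looked up after the values were seen and had 78.8 and 79.5 RPKM at E9.25 and 235 at E12.5 (log2 1.49, SE 0.83, adjusted p = 0.294). E12.5 ysE is 1 library made without strand marking, so stage and protocol cannot be told apart. Markers of other cells also moved between the stages. Of 5 endothelial markers 3 were lower at E12.5 (median log2 −4.82), as were 3 of 6 erythroid (−3.85) and 2 of 6 mesothelium and fibroblast markers (−1.71), 2 of 5 hepatoblast markers were higher (2.40), and none of the 7 yolk sac endoderm markers was called (0.18), and their part in the result was not tested. Of all 2106 calls 46.0% were higher at E12.5, and 58.6% with RLE scaling. The Fcgrt call was lost when either E9.25 library was left out (adjusted p = 0.172 without A and 0.126 without B), and a fit of these 3 libraries alone, whose spread rests on the E9.25 pair, called all 6 genes and 50.2% of all transcripts.

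The group mean of each of the 6 genes was lower in cystic EBs than in E9.25 ysE, with overlapping libraries for Lrpap1, and all 6 were called lower against 23.2% of all transcripts. The largest falls were those of Amn, 52.0-fold (log2 −5.70, SE 0.62, adjusted p = 0.000117), Fcgrt, 31.4-fold (log2 −4.97, SE 0.49, adjusted p = 7.74e-05), and Cubn, 26.8-fold (log2 −4.74, SE 0.53, adjusted p = 0.000136). Lrp2 was 6.33-fold lower (log2 −2.66, SE 0.34, adjusted p = 0.00024) and Dab2 5.02-fold lower (log2 −2.33, SE 0.42, adjusted p = 0.00176). Lrpap1 was 1.99-fold lower (log2 −0.995, SE 0.37, adjusted p = 0.0475), and this call was lost in 12 of its 16 alternatives, among them DESeq2 (adjusted p = 0.0593) and limma on RPKM, while it stood without the d15 A9 library (log2 −1.28, adjusted p = 0.00494). The 7 endoderm markers fell too, all 7 being called lower, to between 3.78% (Afp) and 12.4% (Apob) of the E9.25 ysE level, where the 6 genes stood at 2.68% (Amn), 4.33% (Fcgrt), 5.09% (Cubn), 21.5% (Lrp2), 27.1% (Dab2) and 67.9% (Lrpap1). These percentages compare mean RPKM, whereas the edgeR folds use TMM scaling (factors 0.766 and 0.789 in E9.25 ysE, 1.12 to 1.21 in EBs), so they differ. The authors had already listed Afp, Apoa2, Apoc2, Hnf4a and Amn as higher in ysE than in EBs. They also reported Dab2 and Ttr at a lower level in EBs than in ysE of both stages. The lower calls of all these genes here, from the same data, are no independent result. Cystic EBs also hold other cells, with pluripotent markers summing to 64.3 to 137 RPKM (4.81 to 5.53 in E9.25 ysE) and muscle markers to 28.5 to 173 RPKM (3.03 to 3.81), and all 3 neural markers were higher (median log2 5.13), while all 6 erythroid markers were lower (−3.69). Of the parietal endoderm markers 2 of 4 were higher, and of the hepatoblast markers 2 of 5 were lower. The part of these cells in the lower levels was not tested. Among libraries of the same dUTP protocol, the JN EBs against E9.25 ysE, all 6 genes were called lower, as were 27.2% of all transcripts in that fit.

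Against E12.5 ysE, which shares the EB libraries with the comparison above, all 6 genes were again called lower in cystic EBs (18.8% of all transcripts). Fcgrt had the largest difference at 216-fold (log2 −7.75, SE 0.57, adjusted p = 2.92e-05). Amn was 26.6-fold (log2 −4.74, SE 0.66), Lrp2 16.6-fold (log2 −4.05, SE 0.39), Cubn 12.1-fold (log2 −3.60, SE 0.58), Lrpap1 3.84-fold (log2 −1.94, SE 0.44, adjusted p = 0.0071) and Dab2 3.29-fold lower (log2 −1.72, SE 0.51, adjusted p = 0.0252). The Dab2 call was lost in 5 of 12 alternatives (adjusted p up to 0.0877), among them the fit without d15 JN, and that of Lrpap1 in 1, with only the groups compared (adjusted p = 0.0505). The single E12.5 library is assumed to vary like the other groups in this fit. It is also the only library made without strand marking, so the difference between EBs and tissue cannot be told apart from that between protocols. Endothelial (4 of 5, median log2 6.32), pluripotent (3 of 3, 13.84), neural (3 of 3, 8.51) and muscle markers (4 of 4, 10.78) were higher in EBs, and hepatoblast (4 of 5, −7.54) and yolk sac endoderm markers (7 of 7, −3.97) were lower. Of the mesothelial and fibroblast markers 2 of 6 were higher, of the erythroid markers 2 of 6 were higher and 1 lower, and of the macrophage markers 1 of 6 was lower. The part of these cells in the result was not tested.

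Compared with liver, a tissue derived from endoderm, the mixed cystic EBs were higher in 5 of 6 genes, against 24.6% of all transcripts called higher. Amn was 58.8-fold (log2 5.88, SE 0.87), Cubn 31.6-fold (log2 4.98, SE 0.69), Lrp2 15.8-fold (log2 3.98, SE 0.43), Dab2 4.56-fold (log2 2.19, SE 0.49) and Lrpap1 2.90-fold higher (log2 1.54, SE 0.41, adjusted p = 0.0137). Amn had 9 and 12 counts in the liver libraries, so its ratio is loosely set and ranged from log2 2.39 to 6.16 over the alternatives. Fcgrt went the other way and was 4.29-fold lower in cystic EBs (log2 −2.10, SE 0.46, adjusted p = 0.00564), where 20.9% of all transcripts were called lower. With the ScriptSeq libraries alone (A9 EBs and liver) all 6 calls were made, 5 higher where 21.8% of all transcripts were called higher and Fcgrt lower where 22.2% were called lower, while the Lrpap1 call was lost without either liver library (adjusted p = 0.0854 without A and 0.0821 without B) and at an FDR of 1%, and the Dab2 call without liver B (adjusted p = 0.0595). Other cell types moved with this comparison, with 5 of 6 erythroid, 4 of 6 macrophage and 5 of 5 hepatoblast markers lower in EBs and 3 of 4 parietal endoderm, 3 of 3 pluripotent and 3 of 3 neural markers higher. Of the yolk sac endoderm markers 3 of 7 were lower (median log2 −1.32), as was 1 of 5 endothelial markers, while 1 of 4 muscle markers was higher. Erythroid markers summed to 1369 to 1527 RPKM in liver and 12.03 to 128 in EBs, and the part of these cells in the result was not tested. E12.5 ysE was higher than liver in 6 of 6 genes (22.6% of all transcripts), from 11.1-fold for Lrpap1 (log2 3.48, SE 0.53) and 15.0-fold for Dab2 (log2 3.91, SE 0.62) through 50.3-fold for Fcgrt (log2 5.65, SE 0.71) to 262-fold for Lrp2 (log2 8.04, SE 0.56), 381-fold for Cubn (log2 8.57, SE 0.87) and 1566-fold for Amn (log2 10.61, SE 1.08). The Amn ratio rests on the same few liver counts and ranged from log2 6.75 to 10.72 over the alternatives. In this comparison 6 of 7 yolk sac endoderm markers were higher in ysE, and 5 of 5 endothelial, 3 of 6 erythroid and 4 of 6 macrophage markers were lower. Of the parietal endoderm markers 2 of 4, of the hepatoblast markers 1 of 5 and of the pluripotent markers 1 of 3 were higher, while 2 of 6 mesothelial and fibroblast and 2 of 4 muscle markers were lower, and the part of all these cells was not tested. Tissue and library protocol, non-stranded for this ysE and ScriptSeq for liver, cannot be told apart here.

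**Figure D3:**
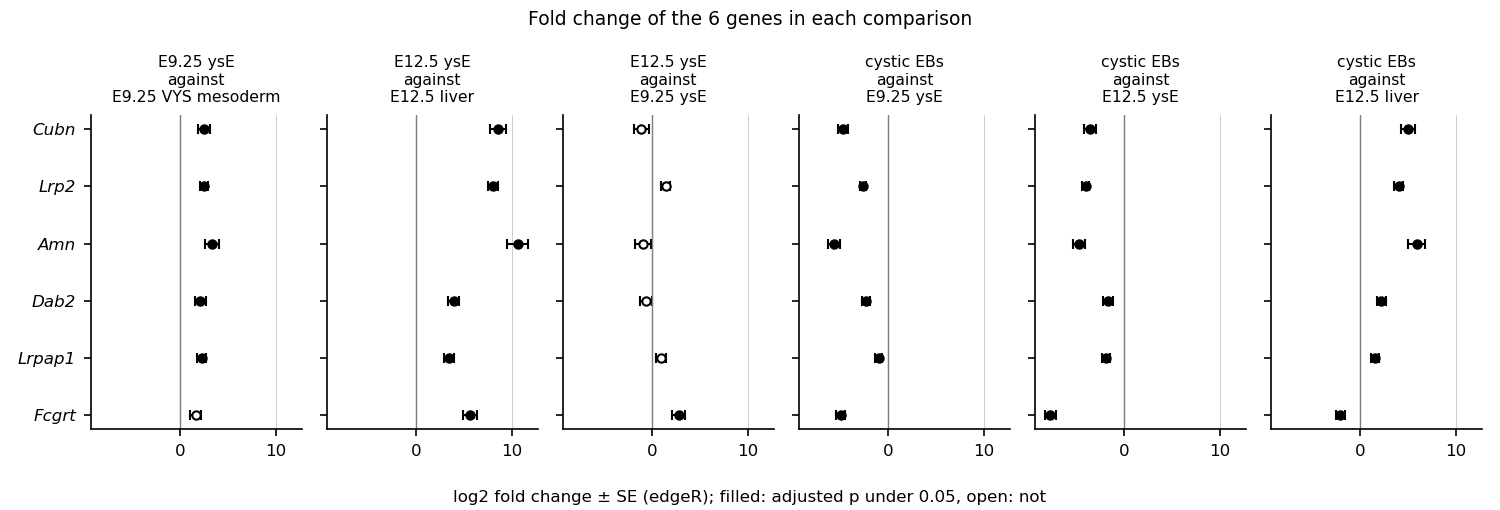
Log2 fold change of each gene with its standard error (edgeR) in the 6 comparisons between groups, filled where the adjusted p is under 0.05 and open where it is not. In cystic EBs against liver Fcgrt (−2.10) lies left of 0 while the other 5 genes lie right of it, between 1.54 and 5.88.

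Day 15 cystic EBs were compared with day 10 to see whether the genes change as the EBs grow older. With the clones as replicates edgeR called no transcript (0% of 24858, with 1358 at an unadjusted p under 0.05, 2 of them among the 6 genes) and DESeq2 called 146. Fcgrt was higher at day 15 in both clones, from 1.60 to 5.21 RPKM in A9 and from 1.54 to 4.59 in JN, which is 3.11-fold (log2 1.64, SE 0.23, adjusted p = 0.57). The A9 and JN libraries of the same ES line pair the days, and with clone as a block Fcgrt was called (log2 1.62, adjusted p = 0.019), as 1 of 82 transcripts called higher (0.330%). DESeq2 called it as well. At day 15 Fcgrt was still below liver in both clones. Lrp2 had a log2 change of −0.84 (SE 0.30, unadjusted p = 0.0236, adjusted p = 0.901) and was lower at day 15 in both clones, whereas Amn had a log2 difference of −0.72 in A9 and 1.13 in JN, which differ by 1.85 (SE 0.55, unadjusted p = 0.00993, adjusted p = 0.397). None of the 6 genes was called for such a difference between the clones, and 0.306% of all transcripts were.

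Between the clones, Cubn (log2 −1.55, SE 0.34, adjusted p = 0.0108), Dab2 (−1.30, SE 0.27, adjusted p = 0.00845) and Lrpap1 (−1.07, SE 0.25, adjusted p = 0.0135) were lower in JN, 3 of 6 genes where 10% of all transcripts were called lower. Amn was higher in JN (log2 1.75, SE 0.41, adjusted p = 0.0147), where 13.1% of all transcripts were called higher. Lrp2 (−0.50, SE 0.34) and Fcgrt (−0.25, SE 0.54) were not called. Calls of Cubn, Lrpap1 and Amn were lost in some fits with a library left out, which leaves 1 library in that arm. Without d10 JN the log2 difference was −1.53 for Cubn and −0.83 for Lrpap1. Without d15 A9 it was −0.71 for Lrpap1 and 1.45 for Amn, and without d15 JN 1.03 for Amn. An FDR of 1%, which also lowered the calls over all transcripts, left only Dab2. Yolk sac endoderm markers were lower in JN in 3 of 7 (median log2 −1.67), endothelial markers in 2 of 5 (−1.56), mesothelial and fibroblast markers in 1 of 6 and parietal endoderm markers in 1 of 4, and 1 of 3 pluripotent markers was higher (median log2 1.25). The part of these cells in the differences was not tested. Amn and its partner Cubn thus differed between the clones in opposite directions. The clones differ in line, sex and library protocol at once, which cannot be told apart here. Each arm is 1 ES line with its days as replicates, so these p-values do not measure the spread between ES lines.

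Exon-level counts showed how evenly the libraries cover the genes. For each gene, the share of reads in each exon part with at least 100 reads was compared with the E9.25 ysE A library, the other E9.25 ysE file being all 0 and not used. In Cubn, with 72 parts, the JN libraries followed ysE closely, with an SD of log2 shares of 0.232 at d10 and 0.24 at d15. The A9 libraries had an SD of 1.09 and 1.12 and profiles that matched each other (Pearson r = 0.986 across the 72 parts of that gene, a description of parts that share 1 clone and protocol). Lrp2 (81 of 84 parts with at least 100 reads in ysE) had SDs of 0.119 and 0.16 in JN and 1.15 and 1.27 in A9, and Amn (12 parts) 0.141 and 0.111 against 1.23 and 1.64. Clone, sex and protocol cannot be told apart here either, and the part of this uneven coverage in the levels of the A9 libraries was not tested.

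Dab2 had the largest SDs of the 6 genes in both clones, 1.77 and 1.71 in A9 and 0.434 and 0.404 in JN. Its first 9 of 44 parts, numbered as in the files, held at most 1 read in any of the 5 libraries. Part 26 held 1.99% of the gene's reads in ysE, 2.20% and 2.14% in the JN EBs and 0.0506% and 0.0682% in the A9 EBs (6 reads each). Part 33 had the larger share in all 4 EB libraries, with 0.961% of the reads in ysE against 3.61% (d10 A9), 2.83% (d10 JN), 4.25% (d15 A9) and 3.02% (d15 JN). It was chosen after its values were seen, and its log2 usage in the dUTP libraries was 1.12 (adjusted p = 0.811). The files count Dab2 together with an overlapping gene model. Over all 4 EBs none of the 232 exon parts of the 6 genes was called for different usage by diffSpliceDGE of edgeR, and none had an unadjusted p under 0.05, with 0.00994% of all 231290 parts called. Within the dUTP libraries none of the 232 was called and 1 had an unadjusted p under 0.05, where 703 parts of 224311 were called. The ysE side is 1 library in these tests, and the test over all 4 EBs mixes ScriptSeq and dUTP libraries of unlike coverage. The lack of calls therefore does not show equal usage. With DEXSeq the paper reported exons of different usage between ysE and cystic EBs.

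**Figure D4:**
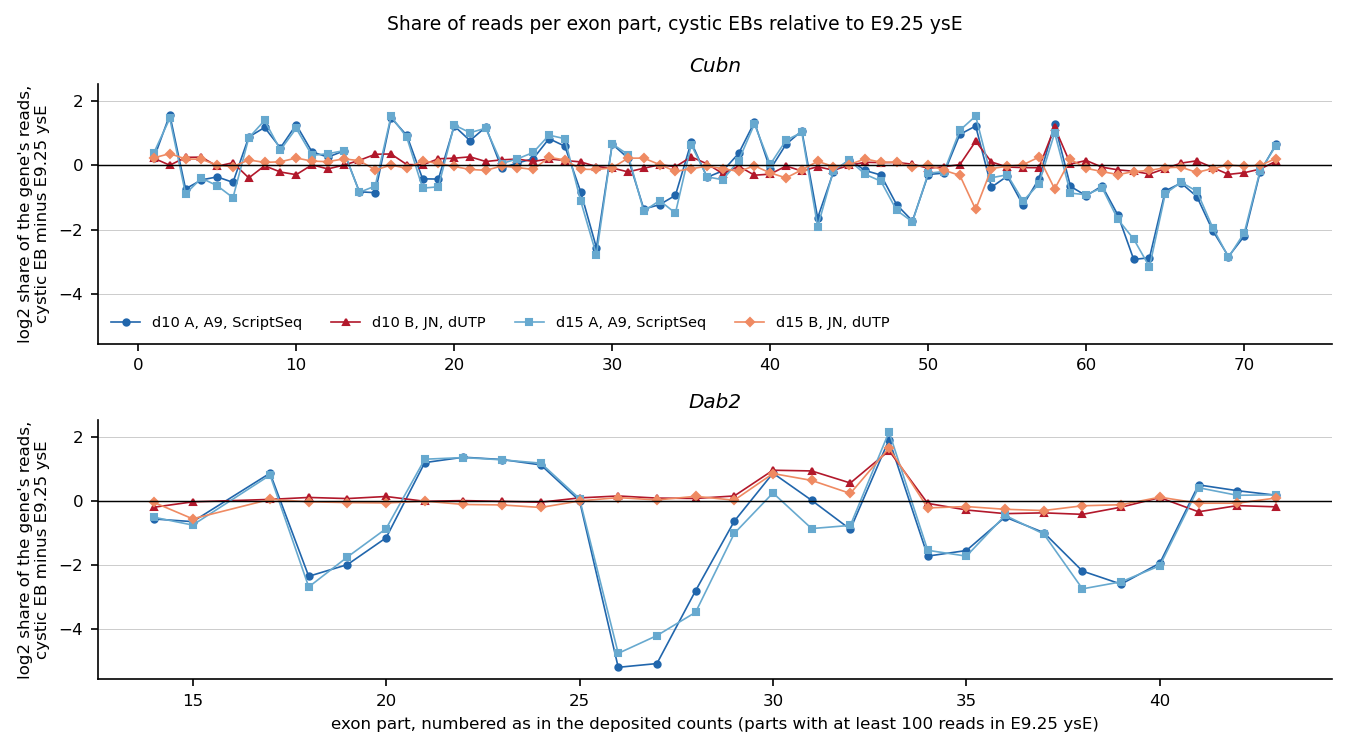
Log2 share of a gene's reads in each exon part of Cubn and Dab2 in the 4 cystic EB libraries, minus the same in E9.25 ysE A (0 means equal use). The JN libraries (dUTP) stay near 0 along Cubn (SD 0.232 and 0.24), the A9 libraries (ScriptSeq) rise and fall together (SD 1.09 and 1.12), and in Dab2 part 33 is above 0 in all 4.

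Other parts of the uptake machinery were described by lists chosen by function. Between E9.25 ysE and mesoderm the median log2 difference of all transcripts was −0.05, with 13.7% of them called higher and 16.9% lower, and the counts below are to be read against these shares. Of 13 other LDL receptor family genes 4 were higher in ysE (Sorl1 2.05, Lrp5 1.39 on the log2 scale) and 3 lower (Lrp11 −1.52 among them), with a median of −0.04. Adaptors and chaperones had 3 of 8 higher (Myo6 2.298 and Numb 1.12 among them) and a median of 0.74. Clathrin and its AP-2 adaptor had 4 of 13 higher (Hip1r 2.43, Cltc 1.36, Cltb 1.13, Ap2a2 1.03), with a median of 0.51. Endosomal sorting had 6 of 12 higher, among them Rab4a (2.32) and the chloride transporter Clcn5 (2.26), with a median of 0.89. The ligands, which share Ttr and Rbp4 with the endoderm markers, had 5 of 9 higher (Ttr 3.66, Apoa1 3.35), with a median of 3.08. Of 5 genes of IgG binding 1 was called, lower in ysE (Fcgr1 −2.49), and of 6 cobalamin genes 1, also lower (Abcc1 −3.66).

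In cystic EBs against E9.25 ysE the median over all transcripts was 0.17, with 27.1% of them called higher and 23.2% lower, and that of the 6 receptor genes was −3.70. Clathrin and AP-2 genes were lower in 9 of 13 (Ap2m1 −2.85, Cltb −1.89), with a median of −1.08, and endosomal sorting genes in 9 of 12 (Rab4a −2.23, Ehd1 −2.10) with 1 higher (Rab38 1.88) and a median of −1.21. Adaptors and chaperones were lower in 4 of 8 (Snx17 −2.07, Myo6 −1.72), with a median of −0.70. The ligands were lower in 6 of 9, with Trf, the transferrin gene, at −7.26 and Apoa1 at −5.13, while Clu was higher at 2.63, and their median was −2.80. The LDL receptor family split, with 4 of 13 higher (Vldlr 3.92, Lrp8 3.65) and 5 lower (Lrp3 −1.99, Lrp10 −1.92). Of the IgG binding genes 2 of 5 were lower (Fcgr2b −3.25, Fcgr3 −3.18), and of the cobalamin genes 1 of 6 was higher (Abcc1 4.13). B2m was not called in EBs against E9.25 ysE (log2 0.32, SE 0.61, adjusted p = 0.68), where its FcRn partner Fcgrt was called lower.

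Levels across the 11 libraries, on a log2(RPKM + 1) scale, were most alike for Cubn and Dab2 (Pearson r = 0.958), Cubn and Amn (0.931) and Lrp2 and Dab2 (0.92). Lrpap1 and Fcgrt were least alike (0.444). These values describe 11 libraries that share tissues, protocols and clones. Among 9574 other protein-coding genes above 5 RPKM in at least 1 library, those most like Cubn were Exoc1 (r = 0.989), Mrpl49 (0.981) and Npl (0.978), and those most like Lrp2 were Tmem19 (0.989), Ints3 (0.985) and Slc20a2 (0.976). Amn was closest to Polg (0.987), Mgrn1 (0.987) and Lrrc41 (0.986), and Dab2 to Arhgef3 (0.986), Vil1 (0.981) and Mcoln1 (0.975). Lrpap1 was closest to Nhlrc3 (0.986), Gcnt2 (0.985) and Ddx58 (0.982), and Fcgrt to Fgd3 (0.981), Tmlhe (0.968) and Fah (0.966). Ranked by Spearman's rho in place of Pearson's r, the 3 closest genes kept Mrpl49 for Cubn and Nhlrc3 for Lrpap1, and none of those named for the other 4. As the 17th closest gene of 9579, Dab2 was the member nearest to Cubn.

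Trimethylation of histone H3 at lysine 4 marks starts of active genes. Each of the 6 genes had a peak over a start in E12.5 VYS, where 59.5% of 21263 starts of protein-coding genes had one within 1 kb. The peak at Cubn (chr2:13488748-13492494) was 3747 bp wide, that at Lrp2 (chr2:69582218-69586523) 4306 bp, at Fcgrt (chr7:45099834-45104428) 4595 bp and at Dab2 (chr15:6385984-6391188) 5205 bp. These were wider than 97.8%, 98.9%, 99.3% and 99.6% of the 22343 peaks, which include peaks away from starts. The widths of peaks at starts alone were not computed. The peaks at Lrpap1 (chr5:35103318-35106309, 2992 bp) and Amn (chr12:111270499-111272834, 2336 bp) exceeded 93.7% and 84.5% in width. The score of 5 of the 6 was 3100, which 23.6% of all peaks share and which cannot rank them, and that of Amn was 3006.74. In Dab2 the peak lay on the second start, the one with 17 CpGs, and no peak lay within 5 kb of the first. The Cubn and Fcgrt starts, with 2 and 5 CpGs, carried peaks of 3747 and 4595 bp, within the 2992 to 5205 bp of the Lrpap1, Lrp2 and second Dab2 starts, which have 14 to 18. With 1 library there is no replicate check.

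Methylation was read as the percentage of methylated reads at CpGs within 1 kb of a start, for libraries with at least 5 reads there. The Cubn start had 22.2% of 9 reads (95% Wilson interval 6.32% to 54.7%) and 0% of 9 reads in ysE (CxF and FxC; with 0 methylated reads the interval reaches 29.9%). Liver had 100% of 7 and 85.3% of 34 reads, and cystic EBs 86.7% of 30 and 75% of 12. The Fcgrt start had 55.6% of 9 and 33.3% of 6 reads in ysE, 94.4% of 18 in liver (FxC), and 94.4% of 18 and 71.4% of 7 in EBs. At both starts each ysE library lay below each EB library, though for Fcgrt the ysE intervals reach 81.1% and 70%. The Amn start was methylated in liver (54.5% of 11 and 88.2% of 17) and EBs (100% of 16 and 70% of 10), with only 2 reads in ysE.

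Within 1 kb, the Lrp2 start and the second Dab2 start had low values where 5 reads were reached. Lrp2 had 5% of 20 reads in ysE (CxF), 23.1% of 13 in liver (FxC) and 0% of 11 and of 5 in EBs (0 methylated reads, intervals up to 25.9% and 43.5%), and its RPKM in liver was 0.897 and 1.08. The second Dab2 start had 17.7% of 62 and 3.85% of 26 reads in ysE and 16.7% of 48 and 21.4% of 14 in EBs, whereas the first had 100% of 10 and 100% of 6 in EBs. Chromosome 15 was not analysed in the liver libraries. Lrpap1 had 22.2% of 9 reads in 1 ysE library and too few elsewhere within 1 kb. Of the 3 starts with 5 reads in all 4 libraries, Cubn and Fcgrt had ysE below EBs without overlap, and so did 36.6% of 5741 starts of all protein-coding genes. Against liver the Cubn start was the only one with 5 reads in all 4 libraries and had ysE below liver without overlap, as did 29.2% of 5694 starts. ysE DNA had fewer methylated reads summed over the genome, with 60.1% and 67.8% against 77.6% and 79.8% in liver and 82.6% and 87.0% in EBs, and for 2 libraries against 2 the smallest exact permutation p is 1 in 3. Along the gene body Cubn stood at 72.8% and 78.5% for the ysE libraries and at 78.3% and 80.3% for those of liver, with EBs at 88.7% and 90.6%. Lrp2, Dab2 and Fcgrt also had both ysE libraries below both EB libraries there. Lrpap1 overlapped, with 77.6% and 81.8% in ysE and 72.2% and 89.7% in EBs. Amn went the other way, with 85.1% of 47 reads in ysE (CxF) and 51.6% of 31 and 78.6% of 14 in EBs. The share of all gene bodies with such an order was not computed. Intervals cover counting error only.

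The H3K4me3 peaks gave wider windows with more reads at most starts, an alternative added after the values were seen, and the Lrp2 and second Dab2 starts were not low there in every tissue. Over the Dab2 peak ysE had 13.9% of 72 and 0% of 34 reads (CxF and FxC; for the latter 0 methylated reads, interval up to 10.15%), and EBs had 47.5% of 80 and 63.6% of 44, without overlap. Over the Lrp2 peak the tissues overlapped, with 13.9% of 36 and 50% of 14 reads in ysE, 50% of 16 and 60% of 50 in liver, and 34.8% of 23 and 9.09% of 11 in EBs. Over the Lrpap1 peak ysE had 0% of 5 and 14.3% of 14 reads, liver 100% of 9 (FxC), and EBs 80% of 5 (FxC). Under the minimum of 5 reads, the CxF libraries had 100% of 3 in liver and 0% of 4 in EBs. Cubn had 20% of 20 and 23.1% of 13 reads in ysE against 77.3% of 44 and 88.6% of 35 in EBs, and Fcgrt 23.1% of 13 and 27.6% of 29 against 92.9% of 28 and 73.3% of 15. With the peak as the window 3 of the 4 starts read in all ysE and EB libraries (Cubn, Fcgrt and the second Dab2 start) had ysE below EBs, as did 34.8% of 3532 starts of protein-coding genes over the peaks that hold them. Against liver 2 of 3 (Cubn and Fcgrt) had ysE below without overlap, and 31.5% of 3519 starts did. No relation between CpG number and methylation was tested.

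**Figure D5:**
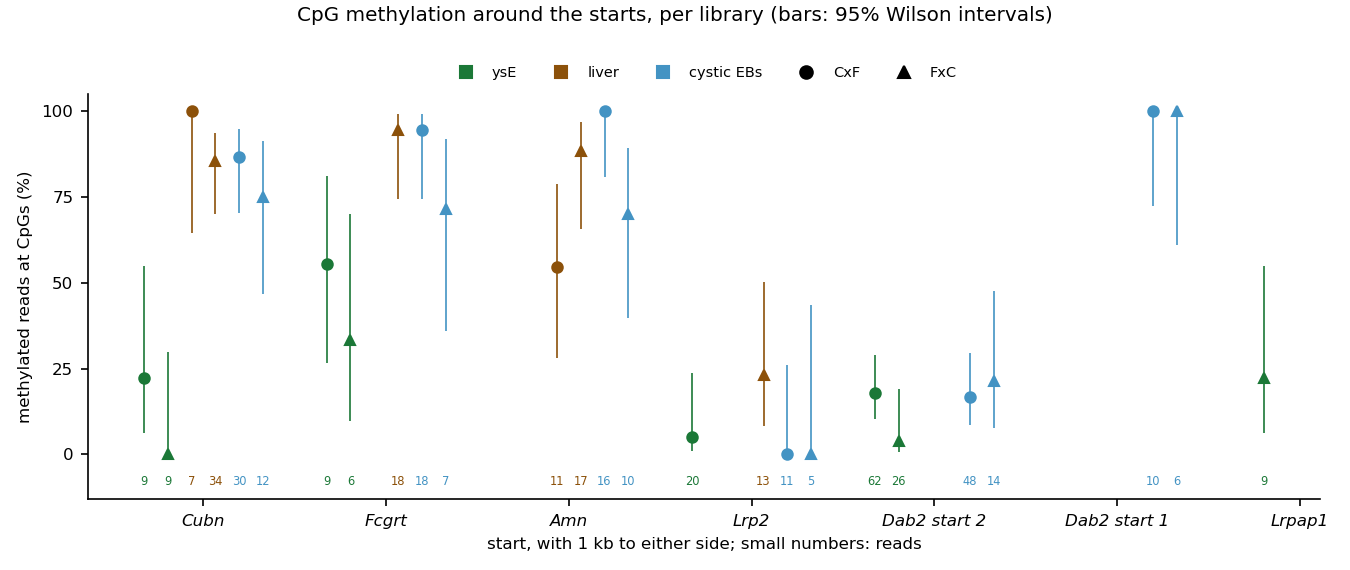
Percentage of methylated reads at CpGs within 1 kb of each start, 1 point per library with at least 5 reads, with 95% Wilson intervals and the number of reads under each point. At Cubn the ysE points (22.2% and 0%) are below those of liver and EBs (75% to 100%), and at Lrp2 and the second Dab2 start all points are at 23.1% or less.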

How the data were processed

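Deposited counts and RPKM values give reads per RefSeq transcript in 11 RNA-seq libraries, which the authors made from GSNAP alignments (version 2012-12-12) to mm10. How reads shared by transcripts were counted is not given in the sources used here. Deposited exon-part counts hold 28.7% to 36.1% of reads in 4 rows that name no gene, left out here, and 1 exon file held only 0 and was not used. The authors called CpG methylation with BisSNP, and the deposited percent values and coverage were summed here over windows. The deposited peak score is that of MACS 1.4.2.

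Transcripts were tested with edgeR 4.0.16 (R 4.3.3), quasi-likelihood with TMM and filterByExpr over all 11 libraries, with Benjamini-Hochberg adjustment over 24858 transcripts. DESeq2 1.42.0 and limma 3.58.1, on log2(RPKM + 1) and log2(RPKM + 0.1), were alternatives, beside other scaling, filters, left-out libraries, blocks, windows and read minimums. Scripts were tested on simulated counts in which 100 transcripts changed 2-fold, 100 changed 4-fold and all others were equal between the groups. For E9.25 ysE against mesoderm edgeR recovered 0% and 3% of the changed ones. It recovered 2% and 52% for EBs against E9.25 ysE, and 3% and 46% for EBs against liver. In the data many more transcripts differed, with 30.6% called between E9.25 ysE and mesoderm, so these rates need not apply there. A gene that was not called may still differ. Samples of a tissue group are pooled litters, and p-values measure the spread between replicates. The EB libraries are day 10 and day 15 of clones A9 and JN. They counted as separate replicates in tests against tissues, although days of a clone are not independent. In JN against A9 the replicates of each arm are the days of 1 ES line. EB libraries of a clone come from 1 ES line and deviated together across days (r = 0.803), so clone pairs the days. Members and lists were chosen with earlier results of these data known. Named list genes are among the 2 highest and 2 lowest called per list, some of which are not reported here, and likeness names the 3 closest genes.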

Additional observations from a re-analysis of the deposited data

How the results depend on the processing

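Of the alternatives for single genes, 553 kept direction and side of the threshold, 41 lost the call, 11 gained it and 7 reversed. For the number of the 6 genes called, E9.25 ysE against mesoderm gave 5, with 6 by DESeq2 and with only the groups compared, 3 at an FDR of 1% and 1 to 5 with a library left out. E12.5 against E9.25 ysE gave 1, with 0 at an FDR of 1% and without either E9.25 library, 2 with DESeq2 and 6 with only the groups compared. Day 15 against day 10 gave 0, with 1 by DESeq2, 1 with clone as a block and 0 to 1 with a library left out. EBs against E12.5 ysE gave 6 (4 with only the groups compared), and against liver 6 (4 without liver B). JN against A9 gave 4, with 1 at an FDR of 1% and 2 to 4 with a library left out. Starts with ysE below EBs in methylation numbered 2 of 3 measured, with 0 of 1 at 10 reads (Cubn and Fcgrt not measured), 1 of 1 within 500 bp, 4 of 6 within 2 kb, 3 of 4 over the H3K4me3 peak (chosen after seeing the data) and 2 to 3 with 1 cross; 20 reads left no start.

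The reversals came with a library left out. From day 10 to day 15 the log2 change ranged from −1.30 to 0.64 for Cubn, −0.56 to 1.24 for Dab2 (−0.42 without d15 A9), −0.041 to 1.19 for Lrpap1 and −1.11 to 1.48 for Amn, and between clones from −1.21 to 0.91 for Fcgrt (0.30 without d10 JN). The cause was not tested.

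Over all transcripts, calls between E9.25 ysE and mesoderm numbered 7613, with 13160 for only the groups compared and 4021 to 4869 with a library left out. Between the ysE stages they numbered 2106, with 3937 by DESeq2, 10559 for only the groups compared and 349 to 390 with an E9.25 library left out. An FDR of 1% left 4315 and 472 of these, 2621 of 5749 for JN against A9, 8097 of 12500 for EBs against E9.25 ysE, 5794 of 9932 against E12.5 ysE and 6793 of 11297 against liver, and 7463 of 11521 for E12.5 ysE against liver. Leaving out d10 JN or d15 A9 gave 3543 and 3207 for JN against A9, leaving out an E9.25 ysE library 7603 and 7793 for the EBs, and leaving out liver B 6668 against liver. EBs against E12.5 ysE gave 6344 with only the groups compared, and exon parts gave 703 calls with dUTP libraries against 23. Letters pair no other groups (r −0.11 to 0.20): with the letter as a block the calls between E9.25 ysE and mesoderm were 8077 (crossed letters, chosen after seeing the data, 8030), with 5 genes called, and the block changed no other call of the 6 genes. The share of calls higher in EBs than in E9.25 ysE was 53.9%, and 67.3% or 69.9% on RPKM. E12.5 ysE is 1 library and could not be left out. Few reads at each start limit the methylation values.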
